A study of Mus musculus with 12 samples.

Results

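The genes described here are 9 transmitter and marker genes of retinal amacrine cells, namely Gad1, Gad2, Slc6a9, Slc32a1, Chat, Tfap2a, Tfap2b, Calb2 and Dab1. They were taken by symbol from tables of 37991 genes, and all 9 are autosomal. Expression was measured by paired-end mRNA-seq in whole retinas of male mice aged 8 weeks. There were 4 groups of 3 libraries, each library made from 6 to 8 pooled retinas. F0 C57BL/6J and F0 Cast/EiJ are the parental inbred strains, the second derived from wild Mus musculus castaneus. F1 B6xCast mice had a C57BL/6J father and a Cast/EiJ mother, and F1 CastxB6 mice had a Cast/EiJ father and a C57BL/6J mother. No group carried a transgene or received a treatment. A pool of retinas counts as 1 replicate, so the spread between libraries is a spread between pools.

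Amacrine cells are interneurons of the inner retina that shape the signals passing from bipolar to ganglion cells. Most release GABA or glycine, and small classes add acetylcholine, dopamine or a peptide. Gad1 and Gad2 encode the enzymes that make GABA from glutamate. Slc6a9 encodes the glycine transporter GlyT1, which marks glycinergic amacrine cells, and Slc32a1 encodes the vesicular transporter that loads both GABA and glycine. Chat encodes choline acetyltransferase and marks the starburst amacrine cells. Tfap2a and Tfap2b encode AP-2 transcription factors of developing and mature amacrine cells, Calb2 encodes the calcium-binding protein calretinin, and Dab1 encodes an adaptor of the Reelin signalling pathway that marks AII amacrine cells. Several of these genes are also used outside amacrine cells, Gad1 and Slc32a1 in horizontal cells and Calb2 in ganglion cells.

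The 2 alleles of an F1 library share the same nuclei, so the number of amacrine cells is the same for both. A strain difference in F0 that recurs between the F1 alleles is therefore a cis pattern, and one that is absent between the alleles is called trans here. From an F0 difference in whole retina alone, fewer cells of a type and less RNA per cell cannot be told apart. Fewer cells, or a change per cell that acts on both alleles alike, would appear as a trans pattern. The members were compared in that order, first between the F0 strains, then between the alleles, and then between the reciprocal crosses.

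In the NCBI37 coordinates of the tables, the genes lie on 6 chromosomes. Gad1 is at chr2:70391129-70440071, Gad2 at chr2:22477725-22549394 and Slc32a1 at chr2:158436494-158441484, all on the forward strand. Slc6a9 is at chr4:117507111-117547803 and Dab1, the longest of the 9 with a span of 1125.5 kb, at chr4:103291964-104417449. Tfap2b is at chr1:19198995-19228815. Calb2 at chr8:112661402-112692110, Tfap2a at chr13:40811044-40829192 and Chat at chr14:33221389-33279095 are on the reverse strand. The annotation lists 13 transcripts each for Slc6a9 and Dab1, 8 for Gad1 and 2 or 3 for each of the others, which bears on how reads were shared out among isoforms.

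Promoters are shown for the members on which the comparisons turn, because Gad1 and Gad2 encode the same enzymatic activity and differed in opposite directions between the alleles, whereas Slc6a9 and Tfap2a differed between the strains. RefSeq (GRCm38.p6) gave 12 promoters for 8 of the 9 members, the 250 bases before each start site. These C57BL/6J sequences were searched on both strands for the AP-2 motif GCCNNNGGC and for its longer form, in which 4 bases of any kind part GCC from GGC, since Tfap2a and Tfap2b bind such sites. Each motif reads the same on both strands, so a site counts once. Capitals mark the matches.
Gad1, chr2:70561879-70562128 (+): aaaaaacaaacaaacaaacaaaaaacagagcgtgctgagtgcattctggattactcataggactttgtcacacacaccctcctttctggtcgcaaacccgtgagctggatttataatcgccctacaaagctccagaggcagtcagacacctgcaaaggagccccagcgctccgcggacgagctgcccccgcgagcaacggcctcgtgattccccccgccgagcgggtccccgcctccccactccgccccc
Gad2, chr2:22622077-22622326 (+): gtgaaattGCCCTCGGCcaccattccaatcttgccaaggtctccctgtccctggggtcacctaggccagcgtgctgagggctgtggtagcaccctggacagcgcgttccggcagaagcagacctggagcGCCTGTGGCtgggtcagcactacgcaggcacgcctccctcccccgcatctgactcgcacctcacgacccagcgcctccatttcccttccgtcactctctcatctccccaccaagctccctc
Slc6a9, chr4:117855297-117855546 (+): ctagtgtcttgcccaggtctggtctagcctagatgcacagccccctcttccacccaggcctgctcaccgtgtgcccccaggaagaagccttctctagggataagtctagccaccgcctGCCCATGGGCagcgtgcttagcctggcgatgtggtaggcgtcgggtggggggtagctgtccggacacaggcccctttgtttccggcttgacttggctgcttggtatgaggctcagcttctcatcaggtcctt
Tfap2a, chr13:40734921-40735170 (-): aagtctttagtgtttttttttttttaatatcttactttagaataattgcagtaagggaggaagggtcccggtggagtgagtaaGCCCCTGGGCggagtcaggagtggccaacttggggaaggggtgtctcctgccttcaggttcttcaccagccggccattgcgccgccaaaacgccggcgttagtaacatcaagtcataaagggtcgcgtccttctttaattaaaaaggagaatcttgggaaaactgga
GCCNNNGGC occurred in 1 of the 12 member promoters, that of Gad2, which held 2 matches, against 13.73% of 32851 RefSeq promoters of this length. The longer form occurred in 2 of the 12, 1 of 3 windows of Slc6a9 and 1 of 2 windows of Tfap2a, against 12.33% of all promoters. For these 2 genes the window with the match is the one printed, and their other windows held neither form. Neither form was found in the window printed for Gad1. A match is a description of the letters only.

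Library depth was judged from unique hits, the read pairs specific for 1 gene and, in F1, for 1 of its alleles. They numbered 10363519 to 11888819 per library in F0 C57BL/6J, 8158534 to 10078766 in F0 Cast/EiJ, 8808577 to 12363291 in F1 B6xCast and 10692254 to 12172865 in F1 CastxB6. In every F1 library at least 99.36% of X-chromosomal hits were assigned to the maternal genome, as the labels of these male mice require. The first replicates of F0 C57BL/6J, F0 Cast/EiJ and F1 B6xCast lay farthest from the rest of their groups, with root mean square log2 deviations of 0.355, 0.357 and 0.338 over genes, against 0.263 to 0.320 in the other 9 libraries.

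All 9 genes were expressed in every library. On the FPKM scale, which allows levels to be compared between genes, Calb2 was highest at 149.0 ± 8.68 (SD over 12 libraries). Gad1 followed at 67.4 ± 8.07 and Slc6a9 at 64.5 ± 9.0, and these neighbours did not differ beyond their spread. Slc32a1 stood at 31.4 ± 3.29 and Tfap2b at 24.4 ± 2.35. Tfap2a at 10.7 ± 1.78, Gad2 at 9.0 ± 1.42 and Dab1 at 8.36 ± 0.395 overlapped with one another. Chat, the marker of a sparse cell class, was lowest at 3.53 ± 0.450. Gad1 was thus the more abundant of the GABA-synthesizing enzymes in all 4 groups.

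**Figure D1:**
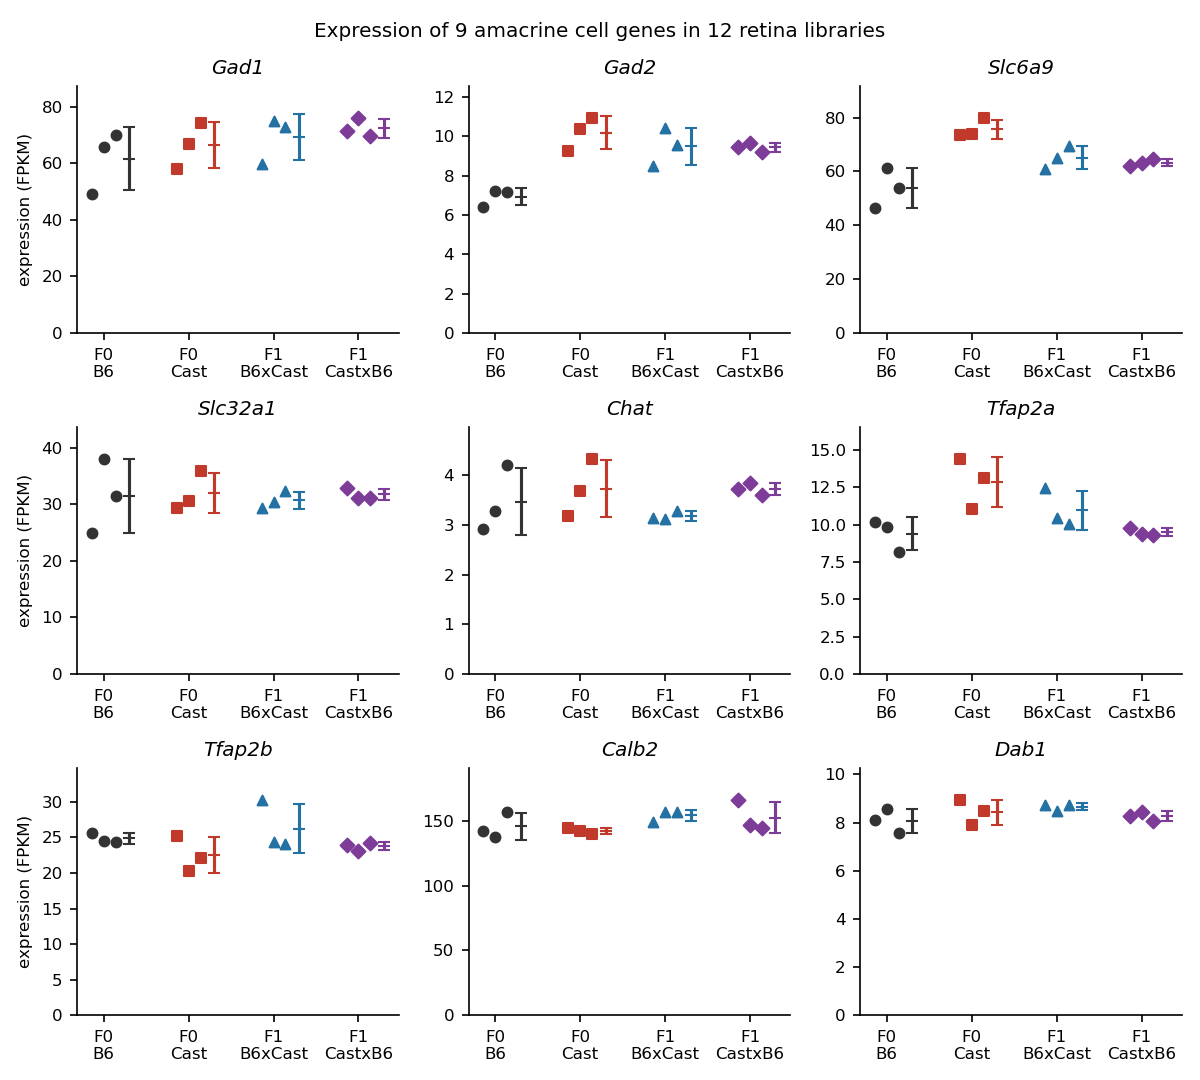
Expression of the 9 genes in FPKM (vertical axes, starting at 0) in each of 12 libraries, 3 per group, with the group mean ± SD beside the points. Gad2 and Slc6a9 were higher in all 3 F0 Cast/EiJ than in all 3 F0 C57BL/6J libraries, and the F1 libraries of Slc6a9 lay between the 2 strain means.

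The F0 comparison asks which of these genes differ between the parental retinas. Gad2, Slc6a9 and Tfap2a were higher in Cast/EiJ, by 1.46-, 1.48- and 1.36-fold, and none of the 9 was lower. This is 3 of 9 genes, where 33.8% of 14452 autosomal genes tested passed in either direction and 17.2% were higher in Cast/EiJ, so the share of members called was close to that of all genes. The median F0 log2 difference was 0.12 over the members and 0.03 over all genes tested. Values below are count equivalents, the normalized read counts estimated for each gene, and differences are on the log2(count equivalents + 1) scale with limma's moderated test and Benjamini-Hochberg adjusted p-values.

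Gad2, the enzyme found at synaptic terminals, had 703, 798 and 790 count equivalents in F0 C57BL/6J and 1020, 1150 and 1170 in F0 Cast/EiJ. The groups did not overlap, and the log2 difference was 0.54 (SE 0.09, n = 3 and 3, adjusted p = 0.0015, limma). Slc6a9 had 2260, 2830 and 2520 in C57BL/6J and 3780, 3570 and 3860 in Cast/EiJ. Every Cast/EiJ library was above every C57BL/6J library, by a log2 difference of 0.56 (SE 0.09, adjusted p = 0.0014, limma). Both calls held without any single library and by each other test.

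Tfap2a had 569, 555 and 458 count equivalents in C57BL/6J and 798, 623 and 738 in Cast/EiJ. These groups too were separate, with a log2 difference of 0.45 (SE 0.12, adjusted p = 0.019, limma). The call was lost on leaving out any of 3 of the 6 libraries. Without C57BL/6J replicate 3, Cast/EiJ replicate 1 or Cast/EiJ replicate 3 the difference was 0.35, 0.37 and 0.43, with adjusted p of 0.063, 0.061 and 0.064 (limma). Without a filter on low values, the adjusted p was 0.14 at the same difference.

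The related gene Tfap2b was not called. It had 2450, 2290 and 2440 count equivalents in C57BL/6J and 2520, 2100 and 2260 in Cast/EiJ, overlapping ranges with a log2 difference of -0.06 (95% interval -0.25 to 0.12). Gad1 had 2840, 3400 and 3570 in C57BL/6J and 3390, 3950 and 3960 in Cast/EiJ. The lowest Cast/EiJ library fell below 2 of the C57BL/6J libraries, and the difference of 0.21 did not pass (interval -0.02 to 0.44, adjusted p = 0.15, limma). Whether Gad1 and Gad2, or Tfap2a and Tfap2b, differed from each other in their strain effect was not tested.

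The other 4 members did not pass in F0 either. Slc32a1 had a log2 difference of 0.04 (interval -0.22 to 0.30), its C57BL/6J libraries spanning 1300 to 1780 count equivalents and its Cast/EiJ libraries 1470 to 1720. Chat, at 153 to 222 and 167 to 230 count equivalents, had the widest interval (0.12, -0.27 to 0.50). Calb2 differed by -0.03 (interval -0.18 to 0.12), with 3540 to 3990 in C57BL/6J and 3610 to 3670 in Cast/EiJ. Dab1 differed by -0.06 (interval -0.31 to 0.19), with 664 to 714 and 556 to 732. For these genes, strain differences beyond the interval bounds were not detected, and smaller ones could not be resolved with 3 libraries per strain.

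Markers of other cells moved between the same F0 libraries. Of 59 tested, 4 were higher and 19 lower in Cast/EiJ, 39% called against 33.8% of all genes, with a median log2 difference of -0.22 against 0.03. Of 9 ganglion cell markers tested, 4 were lower in Cast/EiJ and none higher, and their summed count equivalents ranged from 6783 to 7563 in C57BL/6J and from 4981 to 5347 in Cast/EiJ. Thy1, a surface glycoprotein of ganglion cells, fell by 0.73 on the log2 scale (adjusted p = 1.1e-04, limma), and Nefh, the heavy neurofilament chain, fell by 0.90 (adjusted p = 1.2e-04, limma). Among 5 horizontal cell markers, Lhx1 and Sept4 were lower in Cast/EiJ and the others did not pass. Their sums ranged from 1858 to 2023 and from 1398 to 1539, mostly from Sept4 (arithmetic mean of the parents 1421.7 count equivalents). Of 8 rod markers, 2 were higher, with sums of 843110 to 849460 in C57BL/6J and 852470 to 900240 in Cast/EiJ. Of 5 cone markers tested, 2 were lower, and of 7 Müller glia markers, 2 were lower and 1 higher. Outside the neural retina, 2 of 3 endothelial markers were lower, with sums of 217 to 330 in C57BL/6J and 139 to 156 in Cast/EiJ. Pigment epithelium markers were lower in 2 of 4 tested, with sums of 229 to 284 and 79.5 to 112. Between the F1 alleles, 2 of 5 horizontal cell markers were lower from Cast/EiJ and none higher, with a median log2 difference of -0.31. Of 8 ganglion cell markers tested there, 1 was higher and 2 were lower, with a median of -0.03. Over all genes 47% were called there. The F0 minus allelic median was 0.02 for the horizontal and -0.33 for the ganglion cell markers. Ganglion and horizontal cells also use some of the members, and the part of these marker shifts in the members' values was not tested.

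A further list of 7 amacrine or inner-retina markers (Calb1, Pvalb, Gjd2, Stx1a, Elavl3, Elavl4, Ppp1r17) gave 0 calls in F0, with log2 differences from -0.35 to 0.14 and a median of -0.04. Their summed count equivalents were 4057 to 4384 in C57BL/6J and 3857 to 4731 in Cast/EiJ, ranges that overlap. The sum over the 9 members was 14579 to 16219 in C57BL/6J and 17275 to 18280 in Cast/EiJ, and Gad1, Slc6a9 and Calb2 made up most of it.

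The comparison of alleles in F1 asks whether a difference is written in the gene's own chromosome. Of the 9 members, 4 differed between the alleles, 3 with more of the Cast/EiJ allele (Gad2, Slc6a9, Calb2) and 1 with more of the C57BL/6J allele (Gad1). The background was 47% of 13414 genes tested. The median allelic log2 difference was 0.01 over the members and 0.00 over all genes.

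For Gad2, the C57BL/6J allele had 775 to 864 count equivalents over the 6 F1 libraries (median 837) and the Cast/EiJ allele 1060 to 1330 (median 1220). The Cast/EiJ allele was higher in 6 of 6 libraries, by 0.41 to 0.62 on the log2 scale, and the mean difference was 0.52 (SE 0.05, n = 6, adjusted p = 5.0e-07, limma). It was 0.52 in F1 B6xCast alone and 0.53 in F1 CastxB6 alone. Of 6223 allele-specific unique hits, 58.78% carried the Cast/EiJ allele (95% Wilson interval 57.55% to 60%), and single libraries ranged from 56.3% to 60.42%. These intervals cover counting error only. Setting the F0 difference against the allelic one left 0.02 (interval -0.19 to 0.23), so the Gad2 strain difference was of the same size, within this interval, when both alleles shared 1 set of cells.

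For Tfap2a, the alleles were alike in level. Its C57BL/6J allele had 502 to 703 count equivalents (median 559) and its Cast/EiJ allele 525 to 677 (median 534). The Cast/EiJ allele was higher in 3 of 6 libraries and lower in 3, the mean difference was -0.00 (interval -0.16 to 0.15), and 49.6% of 3004 hits carried it (47.81% to 51.39%). The F0 difference exceeded the allelic difference by 0.45 (SE 0.13, adjusted p = 0.034, limma). This trans call was lost without any 1 of 6 libraries (F0 C57BL/6J replicate 3, F0 Cast/EiJ replicates 1 and 3, or any of the 3 F1 CastxB6 libraries), with adjusted p of 0.059 to 0.11 (limma) and differences of 0.35 to 0.46. It was also lost on log expression (0.44, adjusted p = 0.055, limma) and with any unique hit allowed (0.45, adjusted p = 0.055), and kept on log expression with posterior SD weights (0.45, adjusted p = 0.019).

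For Gad1, the allelic difference ran against the F0 values. The C57BL/6J allele had 3410 to 4700 count equivalents (median 4410) and the Cast/EiJ allele 3360 to 3870 (median 3700). The Cast/EiJ allele was lower in 6 of 6 libraries, by 0.02 to 0.37, with a mean log2 difference of -0.21 (SE 0.07, adjusted p = 0.02, limma). The first F1 B6xCast library, with 3410 and 3360, had nearly equal alleles. Of 16591 hits, 47.28% carried the Cast/EiJ allele (46.52% to 48.04%), and all 6 libraries lay below 50%, between 46.22% and 48.44%. The allelic call did not pass in either cross alone (-0.19 and -0.23, adjusted p = 0.15 and 0.084, limma), nor without replicate 2 or 3 of F1 B6xCast or replicate 1 or 2 of F1 CastxB6 (adjusted p 0.055 to 0.093). It was lost too on log expression (-0.20, adjusted p = 0.095, limma) and on log expression weighted by the authors' posterior SD (-0.17, interval -0.70 to 0.37, adjusted p = 0.65). By edgeR on unique hits it passed (-0.16, adjusted p = 0.011). Gad1 had the largest mean posterior SD of the 9 members in F1, 0.15 for the C57BL/6J and 0.166 for the Cast/EiJ allele on the natural log scale, against 0.0224 to 0.110 for the others.

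The F0 difference of Gad1 exceeded its allelic difference by 0.42 (SE 0.13, adjusted p = 0.038, limma), with opposite signs of the 2 components. Without any 1 of 8 libraries, the first 2 F0 C57BL/6J, the last 2 F0 Cast/EiJ, the last 2 F1 B6xCast or the first 2 F1 CastxB6, the difference was 0.32 to 0.45 with adjusted p of 0.055 to 0.11 (limma). On log expression it was 0.32 (adjusted p = 0.25, limma), with posterior SD weights 0.26 (adjusted p = 0.61) and with any unique hit allowed 0.42 (adjusted p = 0.066), while unique hits gave 0.34 (adjusted p = 0.0048, edgeR). Gad1 and Tfap2a were the 2 of 9 members called in this comparison, where 14% of 13414 genes were called. F0 reads were mapped to strain-specific transcriptomes and F1 reads to a hybrid one, and the F1 libraries had a second lane. A trans difference and this processing therefore cannot be told apart in any F0 minus allelic value.

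Slc6a9 depended on the measure used. In count equivalents, the C57BL/6J allele had 2350 to 2670 (median 2560) and the Cast/EiJ allele 3070 to 3610 (median 3275), separate ranges with a log2 difference of 0.37 (SE 0.05, adjusted p = 9.3e-06, limma). In allele-specific hits, 52.0% of 4483 carried the Cast/EiJ allele (50.53% to 53.46%), a difference of 0.12 (adjusted p = 0.095, edgeR). In FPKM, the C57BL/6J allele stood at 63.4 ± 2.72 and the Cast/EiJ allele at 64.9 ± 4.88 (SD, n = 6), a difference of 0.03 (interval -0.10 to 0.16, adjusted p = 0.72, limma). The ratio of count equivalents to FPKM, which follows the estimated transcript length, was 40.2 ± 2.48 for the C57BL/6J allele and 50.9 ± 2.19 for the Cast/EiJ allele, but 47.1 ± 1.29 and 49.4 ± 1.78 in the 2 F0 strains.

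The F0 minus allelic difference of Slc6a9 followed the same division. It was 0.19 in count equivalents (interval -0.00 to 0.38, adjusted p = 0.18, limma), 0.38 in unique hits (adjusted p = 0.0029, edgeR) and 0.47 in log expression (interval 0.23 to 0.70, adjusted p = 0.012, limma). The F0 difference itself was 0.56, 0.49 and 0.50 by the same measures. Slc6a9 was thus higher in F0 Cast/EiJ by all 3 measures, and its split into cis and trans was set by the measure. The 13 annotated transcripts and the unequal ratios move with this result, and their part in it was not tested.

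Calb2 had 3310 to 3960 count equivalents from the C57BL/6J allele (median 3575) and 3890 to 4350 from the Cast/EiJ allele (median 4030). The Cast/EiJ allele was higher in 6 of 6 libraries, by 0.07 to 0.33 on the log2 scale, with a mean of 0.18 (SE 0.05, adjusted p = 0.0043, limma). In F1 B6xCast alone it did not pass (0.16, adjusted p = 0.069, limma), and in F1 CastxB6 alone it did (0.20, adjusted p = 0.028). Of 14501 hits, 52.55% carried it (51.73% to 53.36%). The F0 strains did not show this difference, but the F0 minus allelic value of -0.21 (interval -0.39 to -0.03) missed the threshold (adjusted p = 0.12, limma), so Calb2 was not shown to differ between the 2 comparisons.

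**Figure D2:**
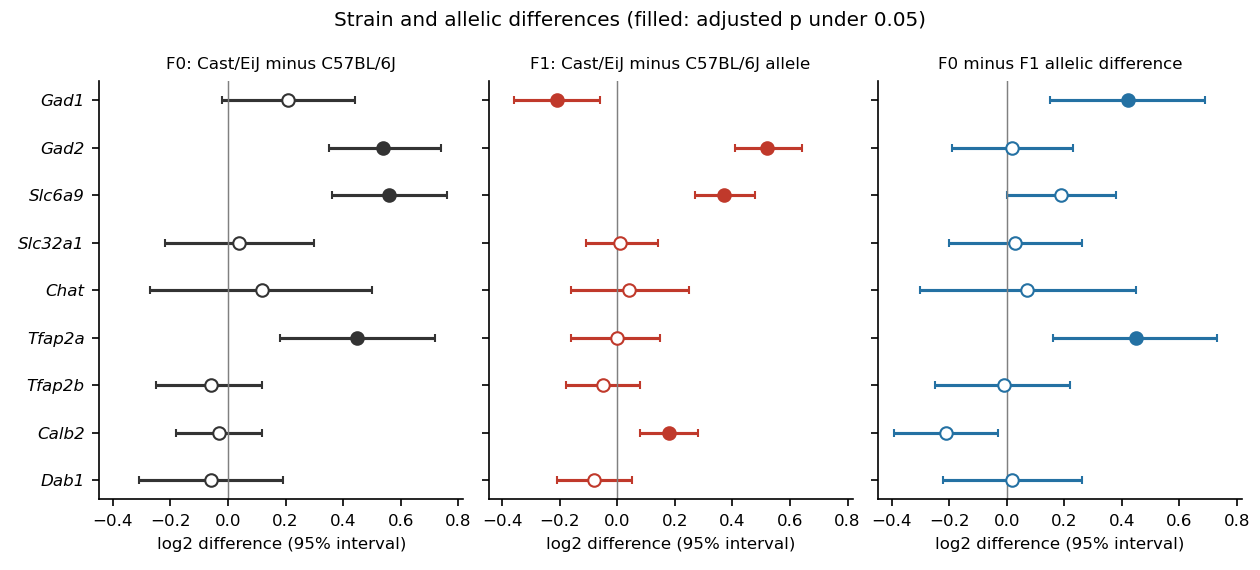
Log2 differences (horizontal axes, limma, 95% intervals) for the 9 genes between the F0 strains, between the F1 alleles and for F0 minus F1. Filled points passed an adjusted p of 0.05. Gad2 was displaced alike in the first 2 panels (0.54 and 0.52), Tfap2a in the first but not the second (0.45 and -0.00), and Gad1 in opposite directions (0.21 and -0.21).

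The remaining 4 members did not pass between the alleles. Tfap2b differed by -0.05 (interval -0.18 to 0.08), with 48.39% of 10745 hits from the Cast/EiJ allele (47.44% to 49.33%). Chat differed by 0.04 (interval -0.16 to 0.25), with 343 of 686 hits from the Cast/EiJ allele (46.27% to 53.73%). Dab1 differed by -0.08 (interval -0.21 to 0.05) in count equivalents, but by -0.14 in unique hits, where it passed (adjusted p = 0.036, edgeR). Its Cast/EiJ share was below 50% in 6 of 6 libraries, from 46.42% to 48.86%.

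Slc32a1 was the member with the least allelic information. It had 506 allele-specific hits in the 6 F1 libraries, a mean of 84.3 per library, although each F0 library held 793 to 1380 hits for it. The Cast/EiJ share was 45.45% (41.17% to 49.81%), below 50% in 6 of 6 libraries, while the difference in count equivalents was 0.01 (interval -0.11 to 0.14). By unique hits it was -0.26 (adjusted p = 0.13, edgeR). An allelic difference of Slc32a1 was not detectable at this depth.

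**Figure D3:**
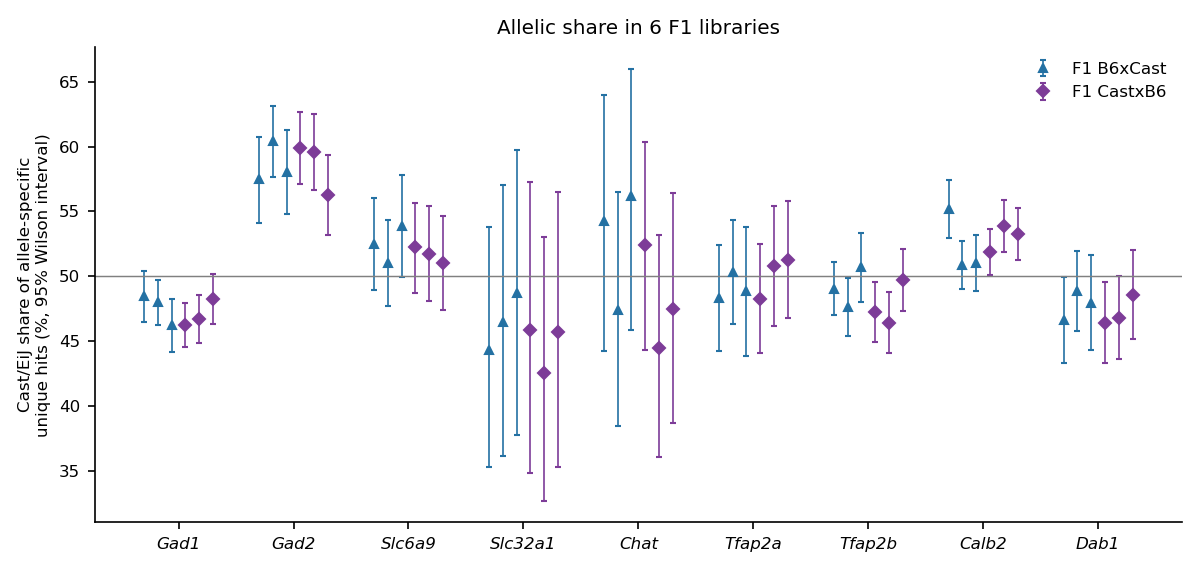
Percentage of allele-specific unique hits assigned to the Cast/EiJ allele (vertical axis, 95% Wilson intervals) in each of the 6 F1 libraries, by cross. Gad2 lay at 56.3% to 60.42% in all libraries, Gad1 at 46.22% to 48.44%, and the wide intervals of Slc32a1 and Chat reflect their low numbers of hits (506 and 686 in all).

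**Figure D4:**
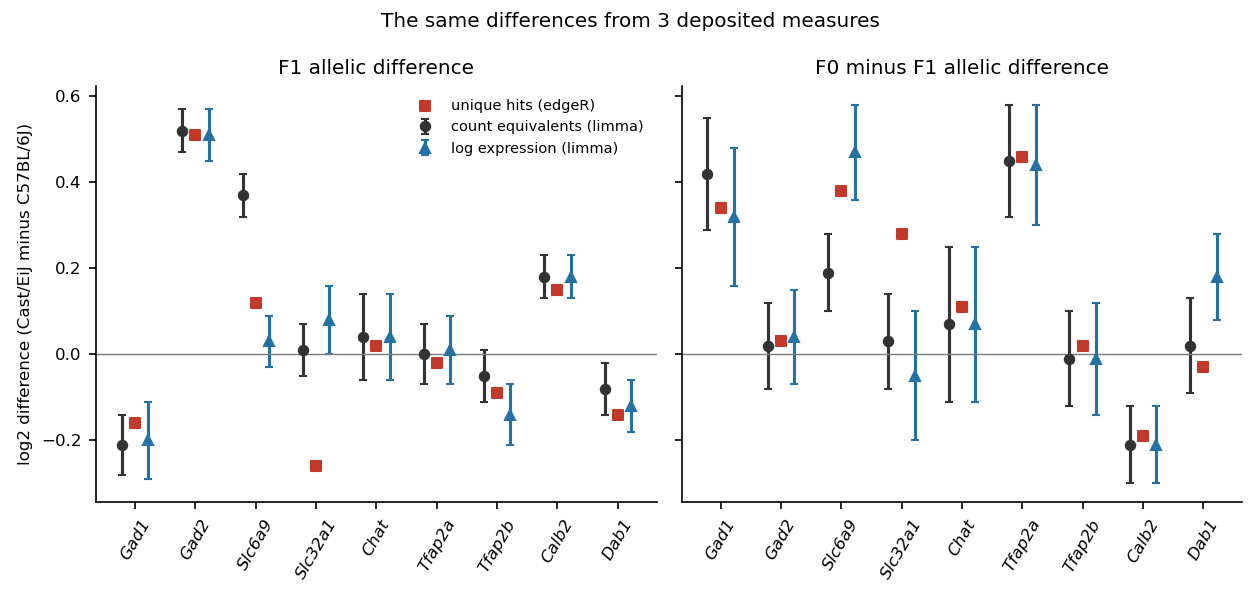
Allelic and F0 minus allelic log2 differences of the 9 genes from count equivalents and log expression (limma, bars ± SE) and from unique hits (edgeR, no error bar). The 3 measures gave 0.52, 0.51 and 0.51 for the Gad2 alleles but 0.37, 0.12 and 0.03 for Slc6a9 in the order count equivalents, unique hits, log expression.

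The F1 totals by cross show whether the whole-retina level of a gene depends on the direction of the mating. None of the 9 members differed between F1 CastxB6 and F1 B6xCast (0 of 9 at an adjusted p of 0.05 and 0 of 9 at an unadjusted p of 0.05 by limma, DESeq2 and edgeR), where 0.0816% of 14710 genes were called. The differences ran from -0.20 for Tfap2a (interval -0.45 to 0.05) to 0.23 for Chat (interval -0.08 to 0.53). Chat had 161 to 169.5 count equivalents in F1 B6xCast and 186.5 to 199 in F1 CastxB6, ranges that do not overlap, but the difference did not pass (unadjusted p = 0.13, limma). Gad2 had the same mean in both crosses, 1017 ± 91.2 and 1013 ± 19.7 (SD, n = 3).

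Maternal and paternal alleles likewise showed no call among the members (0 of 9 by limma and by edgeR, against 0.492% of 13414 genes). At an unadjusted p of 0.05 there was 1 of 9 by limma and 0 of 9 by edgeR on unique hits. The 1 was Slc32a1, whose maternal allele was higher by 0.15 (interval 0.03 to 0.28, unadjusted p = 0.02, adjusted p = 0.59, limma). Its Cast/EiJ allele had 1500, 1560 and 1660 count equivalents in F1 B6xCast, where it is maternal, and 1480, 1380 and 1370 in F1 CastxB6. By unique hits the maternal allele was higher by 0.05 (adjusted p = 1, edgeR), and the Cast/EiJ share was below 50% in both crosses. The intervals of the other members lay between -0.17 and 0.33.

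Set against the mean of the parental strains, no F1 total was called (0 of 9, where 12.2% of 14710 genes were). Gad1 was 0.18 above the parental mean (interval 0.02 to 0.34) and Gad2 0.14 above (interval 0.02 to 0.26), both with an unadjusted p of 0.029 and an adjusted p of 0.15 (limma). Without the first F1 B6xCast library, both passed, at 0.23 and 0.17 (adjusted p = 0.038 and 0.049, limma). The F1 libraries were mapped to a hybrid transcriptome and sequenced on a second lane, so generation and processing cannot be told apart in this comparison.

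Other genes were taken from lists by role, mostly amacrine genes. They include 9 genes of the Reelin pathway and 3 other AP-2 factors, not chosen as amacrine markers. Of 53 tested in F0, 7 were higher and 4 lower in Cast/EiJ, 20.8% called against 33.8% of all genes, with a median log2 difference of 0.09 against 0.03. Of 50 tested between the alleles, 13 were higher and 12 lower from Cast/EiJ, 50% called against 47% of all genes, with a median of 0.02 against 0.00. Of 6 GABA and glycine genes, 2 were higher in F0 Cast/EiJ and none lower. Aldh5a1, which degrades the GABA breakdown product succinic semialdehyde, was higher by 0.36 in F0 (adjusted p = 0.012, limma) and by 0.37 between the alleles (adjusted p = 1.1e-05). Slc6a13, the GABA transporter GAT2, was higher by 1.58 in F0 (adjusted p = 0.0037, limma) at a low level, 9.2 ± 2.21 against 29.3 ± 4.82 count equivalents. Abat (GABA transaminase) did not pass in F0 or between the alleles. Slc6a11 (GAT3) had a higher Cast/EiJ allele (0.20, adjusted p = 3.5e-05, limma), and Slc6a5, the neuronal glycine transporter GlyT2, a lower one (-0.35, adjusted p = 1.0e-04), with F0 values of 0.10 and -0.10 that did not pass.

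Of 3 further acetylcholine genes, none passed in F0 and 2 passed between the alleles, where 33.8% and 47% of all genes did. Slc5a7, the high-affinity choline transporter of cholinergic neurons, had a higher Cast/EiJ allele by 0.42 (adjusted p = 2.2e-05, limma) and an F0 difference of 0.25 (interval 0.00 to 0.49). Bche, butyrylcholinesterase, had a higher Cast/EiJ allele by 0.46 (adjusted p = 0.019, limma) and an F0 difference of -0.16 (interval -0.69 to 0.36). Slc5a7 marks the same starburst cells as Chat, whose alleles differed by 0.04. The difference between the 2 genes was not tested.

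The transmitters and peptides of small amacrine classes showed the widest range. Of 11 genes tested in F0, 2 were higher and 4 lower in Cast/EiJ, and of 10 tested between alleles, 3 were higher and 6 lower. Over all genes, 33.8% were called in F0 and 47% between the alleles. Cck, the cholecystokinin precursor, had 134 ± 21.5 count equivalents in C57BL/6J and 7.99 ± 5.70 in Cast/EiJ, a log2 difference of -4.08 (adjusted p = 8.8e-05, limma) with -3.44 between the alleles (adjusted p = 7.0e-10). Th, tyrosine hydroxylase of dopaminergic amacrine cells, was higher in Cast/EiJ by 1.04 in F0 (adjusted p = 0.0049, limma) and 0.73 between the alleles (adjusted p = 3.1e-05). Penk, the enkephalin precursor, was lower by -1.05 and -1.10, and Slc17a8, the vesicular glutamate transporter VGLUT3, by -0.78 and -0.96 (all adjusted p 0.012 or lower, limma). For these 4 genes the F0 minus allelic difference did not pass. Tac1, the substance P precursor, was the only gene of this list called there (0.70, adjusted p = 0.021, limma) and is named after its values were seen.

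Among amacrine transcription factors, 1 of 14 tested passed in F0, where 33.8% of all genes did. Pax6, required for the amacrine lineage, was higher in Cast/EiJ by 0.29 (adjusted p = 0.0067, limma), its alleles differed by 0.03 (interval -0.04 to 0.10), and the F0 difference exceeded the allelic one by 0.26 (adjusted p = 0.0062). Of 13 tested between alleles, Isl1 was higher from Cast/EiJ (0.20) and 3 were lower, among them Neurod2 (-0.28) and Bhlhe22 (-0.18). Of 3 other AP-2 factors, none passed in F0, and Tfap2c had a lower Cast/EiJ allele (-0.23, adjusted p = 0.025, limma). In the Reelin pathway, which signals through Dab1, 2 of 9 genes were higher in F0 Cast/EiJ, the Reelin receptor Lrp8 (0.33, adjusted p = 0.012, limma) and the adaptor Crkl (0.33, adjusted p = 0.028). Between the alleles 5 were higher from Cast/EiJ and 1 lower, with Reln itself at 0.27 and the receptor Vldlr at 0.19. Over all genes, 47% were called between the alleles.

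**Figure D5:**
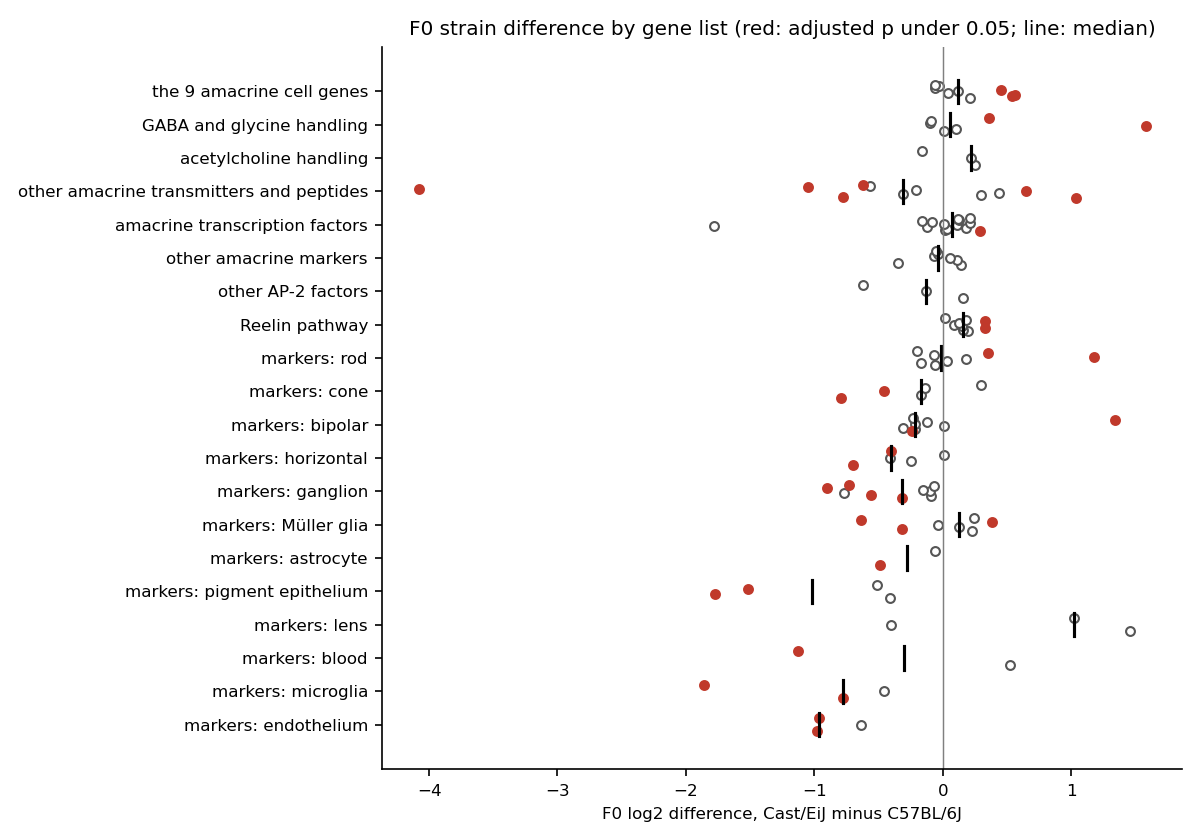
F0 log2 differences (Cast/EiJ minus C57BL/6J, horizontal axis) of single genes by list, with the median as a line and genes at an adjusted p under 0.05 in red. The members ran from -0.06 to 0.56, the other amacrine markers from -0.35 to 0.14, and the peptide list reached -4.08 at Cck.

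Each member was also set against all 14709 other genes of the F1 total comparison, by the root mean square difference of log2 totals over 12 libraries after removal of each gene's mean. The nearest gene was Vps41 for Gad1 (0.051), Mcee for Gad2 (0.053), Tnip1 for Slc6a9 (0.058), Frmpd1 for Slc32a1 (0.044) and Gtf2e1 for Chat (0.102). It was Bud13 for Tfap2a (0.065), B4galnt1 for Tfap2b (0.033) and Nova1 for Dab1 (0.074). No member was the nearest gene of another. The spread of a member about its own mean was smallest for Calb2 (0.068) and largest for Tfap2a (0.223) and Gad2 (0.22).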

How the data were processed

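Retinal mRNA of 12 libraries was sequenced from both ends with reads of 101 bases, the F0 libraries on 1 lane and the F1 libraries on 2. Per the submitters' processing notes, Trim Galore 0.2.6 and Bowtie 0.12.9 were used, and the authors estimated expression with MMSEQ on strain-specific or hybrid NCBI37 transcriptomes. The deposited signal values are count equivalents, normalized by the authors and kept to 3 significant digits. The deposited natural log values are expression estimates by the authors, and their exponential was read as FPKM. Other deposited values are their posterior SD. The deposited counts are unique hits, made by the authors and not normalized. A table of the authors' own model comparisons was not used, nor were 36 per-sample columns.

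Limma 3.58.1 (R 4.3.3, trend) was run on log2(count equivalents + 1) for autosomal genes that reached 10 count equivalents in 3 libraries (F0, totals) or a mean of 10 allele-specific hits per F1 library (alleles). The alleles were fitted with the F1 library as a block (statmod 1.5.0, consensus correlation 0.1354), and calls were made at a Benjamini-Hochberg adjusted p of 0.05. Each allele column had been scaled like a whole library, so F1 totals are the mean of the 2 alleles, not their sum as first designed. Alternatives used edgeR 4.0.16 on unique hits, DESeq2 1.42.0 on rounded count equivalents, log expression, other filters, pseudocount 0.1, TMM factors, a replicate block and libraries left out in turn. The fits were tested on simulated data. Python 3.11.15 with pandas 2.3.3 and matplotlib 3.10.9 made the summaries.

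The members and gene lists were chosen with earlier results of these data known. All 9 members were described. From each other list, genes called in the F0, allelic or F0 minus allelic comparison were named, at most the 4 with the largest F0 difference. One symbol turned into a date by a spreadsheet (Sept4) was matched by its Ensembl identifier, and Slc18a3 was not analysed here. Promoters came from RefSeq (GRCm38.p6), and Calb2 had no entry. The results of 2 genes that are no members are not reported here.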

Additional observations from a re-analysis of the deposited data

Results flagged for a closer look

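In 3 of 18 tests of single libraries (9 members, log2 F1 totals and allelic log2 differences over the 6 F1 libraries of both crosses), 1 library lay outside Dixon's 95% limit, and each time it was F1 B6xCast replicate 1. Gad1 had a log2 total of 11.73 there, against 11.94 to 12.07 in the other 5 libraries. Tfap2a had 9.43, against 9.01 to 9.17. Tfap2b had 11.49, against 11.14 to 11.21. Chance flags about 1 in 20 groups. This library also lay farthest from the rest of its group over all genes.

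The F0 strain difference and the F1 allelic difference of 2 members differed by the test of the difference itself, Gad1 by 0.42 (adjusted p = 0.038, limma) and Tfap2a by 0.45 (adjusted p = 0.034, limma). In count equivalents, the Cast/EiJ allele of Slc32a1 was higher in 3 of 3 F1 B6xCast and lower in 3 of 3 F1 CastxB6 libraries. The maternal allele was higher by 0.15 on average, which did not pass (adjusted p = 0.59, limma), nor did the allelic difference in either cross alone (0.17 and -0.14, adjusted p = 0.14 and 0.23). In unique hits the Cast/EiJ share was below 50% in all 6 libraries (42.53% to 48.68%).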

How the results depend on the processing

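Over the 6 comparisons, 1044 values of the members were recomputed under alternatives. Of these, 983 kept their direction where called and their side of the threshold, 35 lost a call, 19 gained one and 7 changed sign with a call, and a further 70 changed sign without a call under either setting. The allelic and F0 calls of Gad2 and the F0 call of Slc6a9 held under every alternative run.

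Members called in F0 numbered 2 to 3 of 9 with 1 library left out, between the alleles 3 to 4, for F0 minus allelic 0 to 2, for the parent-of-origin and cross comparisons 0 to 0, and for F1 minus the parental mean 0 to 2. Over all genes the ranges were 3498 to 4573, 5487 to 6374, 1460 to 2032, 56 to 77, 9 to 19 and 1428 to 1904. Members called between the alleles fell to 2 in F1 B6xCast alone and to 2 on log expression with or without posterior SD weights. Members called for F0 minus allelic fell to 1 on log expression, Slc6a9 in place of Gad1 and Tfap2a, and 0 with any unique hit allowed. Without a filter, F0 calls over all genes fell to 3161. Parent-of-origin calls over all genes were 40 by edgeR on unique hits and 31 with posterior SD weights. Cross calls were 21 by DESeq2, 5 by edgeR on unique hits and 6 in the 6 F1 libraries alone.

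For F1 minus the parental mean, edgeR on unique hits called 11324 genes and 9 members. F1 hits count only allele-specific read pairs, so the hits of a gene in F0 and F1 do not count the same read pairs. The members fell by -3.88 for Slc32a1, -1.42 for Slc6a9, -0.71 for Chat, -0.58 for Calb2, -0.34 for Tfap2b, -0.26 for Tfap2a and -0.25 for Gad1. Gad2 rose by 0.22 and Dab1 by 0.59. Alleles summed and not halved, an alternative chosen after seeing the data, called 14214 genes and 9 members, with 0.93 for Slc6a9, 0.94 for Slc32a1, 0.91 for Chat and 0.87 for Tfap2a, as a doubled scale must. The cause of the changes other than this doubling was not tested.

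With the replicate block, Gad1 was called in F0 (0.21, adjusted p = 0.0095, limma) and, as 1 member, above the parental mean (0.18, adjusted p = 0.028), and no other member's call changed. Of 18 pairs of libraries with the same number, 6 correlated above 0.1 in their deviations (r -0.114 to 0.299 over the 18). All 6 joined F0 C57BL/6J, F0 Cast/EiJ and F1 B6xCast, replicate 1 with 1 (0.277 to 0.299) or 3 with 3 (0.116 to 0.149). No same-number pair with F1 CastxB6 reached 0.1. The labels do not say what equal numbers share, so the numbers were not taken as pairing. What these libraries share was not tested. Of the members, Slc32a1 and Chat had the fewest allele-specific hits, with means of 84.3 and 114.3 per F1 library.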

Other observations

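Against the parental mean, 8 of 53 genes of the other lists (amacrine, AP-2 and Reelin pathway) were higher and 1 lower in the F1 totals, 17% called where 12.2% of all genes were. Calb1, the calcium-binding protein calbindin, was 0.45 higher (adjusted p = 0.011, limma), and Elavl4, a neuronal RNA-binding protein, 0.51 higher (adjusted p = 0.0046). Both values are in count equivalents. The FPKM values did not show rises of this size. Calb1 had FPKM means of 14.4 and 11.7 in F0 C57BL/6J and F0 Cast/EiJ and 13.6 in each cross, and Elavl4 6.03 and 6.29 against 6.35 in each cross. Vip, vasoactive intestinal peptide, was 0.41 higher (adjusted p = 0.019, limma) and Sst, somatostatin, 0.49 higher (adjusted p = 0.035). Cck was 1.35 above the mean of the parents on the log2 scale (adjusted p = 0.0033, limma), with 76.4 ± 18.4 and 89.7 ± 8.42 count equivalents in the 2 crosses, between the parental means of 134 and 7.99. The excess is over the mean of logs, and the arithmetic mean of the parents was 71.0 count equivalents. Src, a kinase downstream of Reelin, was lower (-0.13, adjusted p = 0.037, limma). These genes were named after their values were seen, and generation and mapping cannot be told apart here.

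Pax6 had 5800 to 6280 count equivalents in F1 B6xCast, close to the 5770 to 6260 of F0 Cast/EiJ, and 4930 to 5075 in F1 CastxB6, close to the 4910 to 4920 of F0 C57BL/6J. The difference between the crosses was -0.27 (interval -0.37 to -0.17, unadjusted p = 1.0e-04, adjusted p = 0.12, limma) and did not pass. F1 B6xCast has the Cast/EiJ mother, and the part of the mother in these values was not tested.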
